A study of Arabidopsis thaliana with 2 samples.

Results

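Class III peroxidases are secreted plant heme enzymes, and their transcripts were followed here in developing Arabidopsis thaliana seeds. The set held 60 genes, picked by locus identifier from the 33602 gene models of the deposited tables, and all 60 were found in both tables. The reference annotation lists all 60 as protein coding, and 59 carry the word peroxidase in the name of their product; the remaining one, AT5G22410, is annotated as RHS18 (root hair specific 18). Another 13 loci known to belong to this family were not in the set and served as a comparison. Of the 60 genes, 45 have 4 exons, 8 have 3, 4 have 2 and 3 have 1.

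Seed RNA came from plants with the construct labelled OLEOp:GmPSKγ1, which carries a soybean precursor gene of the peptide hormone phytosulfokine, and from plants with OLEOp:GmPSKγ1tc, the control construct by its labels. Both were sampled at 10 DAP, the age as labelled, and both constructs are labelled with the same promoter, OLEOp. The RNA of 3 individual lines was pooled for each genotype, so there was 1 library per genotype and the spread between lines could not be measured. Every difference below therefore has no replicate check and no p-value.

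These enzymes oxidise phenolic compounds and cell wall proteins with hydrogen peroxide, and some can also produce reactive oxygen. In this way they link monolignols into lignin, phenolics into suberin and extensins to each other, which stiffens or seals a wall. In seeds they are known, among other places, from the coat, whose walls are modified as it matures. The peroxide comes largely from superoxide, which NADPH oxidases of the plasma membrane make and which superoxide dismutases or spontaneous reaction convert.

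The GmPSKγ1 library held about 16.4 M reads and the control library about 15.3 M reads (M, mega), as recovered from the steps of the FPKM values, which are fragments per kilobase of gene model and M reads. Of the tissue markers, 7 of 7 seed storage genes were measured, at a summed 89954 FPKM in GmPSKγ1 seeds against 110991 in control seeds. Of these, 6 were lower in GmPSKγ1 (42.1% of all measured genes were lower). CRA1 was higher, at 8831 FPKM in GmPSKγ1 and 6493 in the control. Of 6 seed coat genes, 5 were measured, at a summed 907 FPKM in GmPSKγ1 and 942 in the control. TT10, with 597 FPKM in GmPSKγ1 and 682 in the control, was the lower one of these 5. The other 4 were higher in GmPSKγ1 (median log2 ratio of the 5, after adding 1 to each FPKM, 0.27). That median is the value of AT3G50990, itself one of the comparison loci of the peroxidase family, so these markers are not independent of that family. MUM4 turned lower under both rescalings given below, with log2 ratios of -0.0041 and -0.0331, which left 3 genes higher and 2 lower. Among 5 root hair markers, 4 were listed at 0 in both libraries (sums of 0 FPKM in GmPSKγ1 seeds against 0.0267 in control seeds). The sum over 6 root endodermis markers was 3.89 FPKM in GmPSKγ1 and 4.44 in the control, with CASP1 listed at 0 in both. For 4 pollen and tapetum markers it was 4.27 FPKM in GmPSKγ1 and 5.69 in the control, with MS1 and the tapetum gene AT4G28395 at 0 in both. It was 18.7 FPKM in GmPSKγ1 and 14.3 in the control for 4 fruit wall markers. Most of that came from SHP1, whose model overlaps another, at 14.7 FPKM in GmPSKγ1 and 12.2 in the control. The sum for 3 leaf photosynthesis genes was 7526 FPKM in GmPSKγ1 and 6749 in the control. The level of a marker does not by itself show which tissue its RNA came from. What part any tissue other than seed had in the peroxidase values was not tested.

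Of the 60 peroxidase genes, 41 had at least 1 read in either library (68.3%, against 68.7% of all gene models) and 21 had a mean FPKM of at least 1 (35.0%, against 53.0% of all models). These 21 are called measured here. They passed on the mean of both libraries, so a gene could pass through 1 library alone. Another 20 had reads but a mean below 1 FPKM, and 19 were listed at 0 in both libraries. The summed level of the 60 genes was 3482 FPKM in GmPSKγ1 seeds against 3420 in control seeds, a share of 0.506% of the GmPSKγ1 library's FPKM and 0.495% of the control library's. That sum was held by few genes: the 7 most abundant made up 95.6% of it in GmPSKγ1 and 93.8% in the control.

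**Figure D1:**
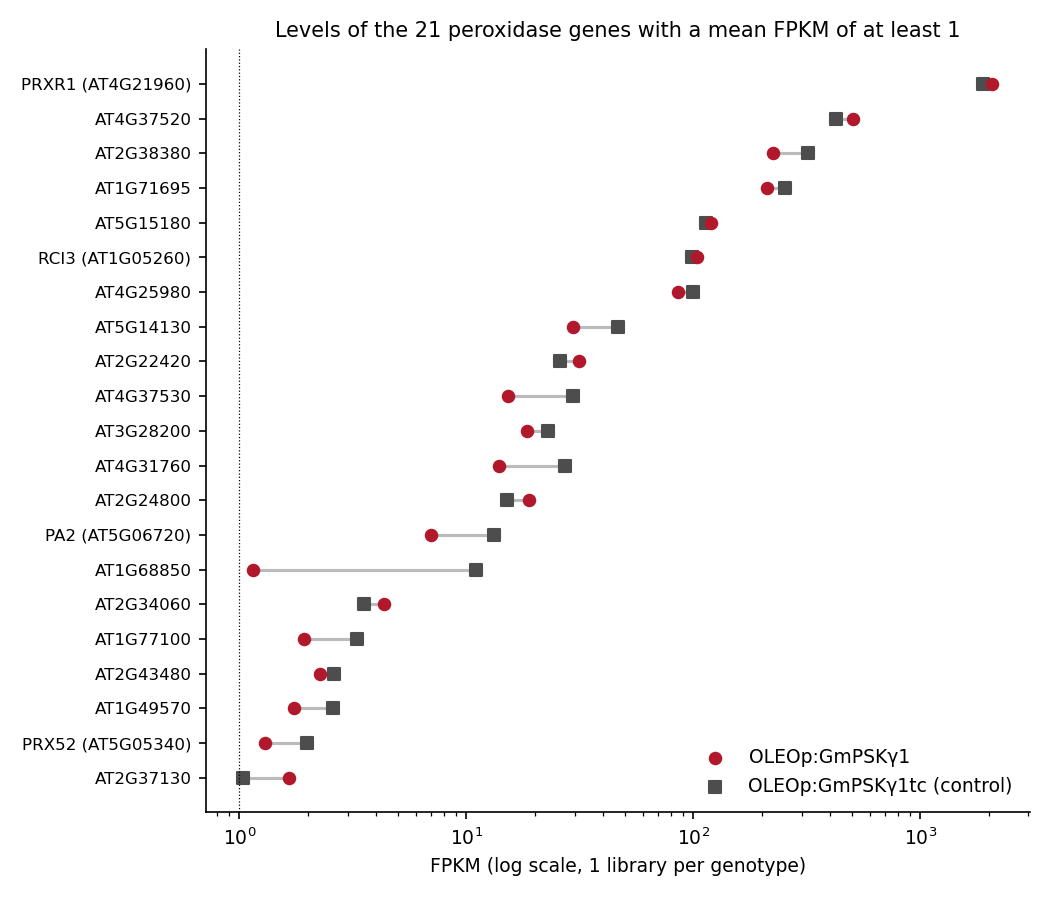
Level of each measured peroxidase gene in FPKM (log scale), with the GmPSKγ1 library as red circles and the control library as grey squares, 1 library each, ordered by mean level; the dotted line marks 1 FPKM. PRXR1 leads at 2078 FPKM in GmPSKγ1 and 1899 in the control, and AT1G68850, at 1.15 FPKM in GmPSKγ1 and 11.0 in the control, has the widest gap between its points.

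Each gene was compared by the log2 ratio of GmPSKγ1 over control after adding 1 to each FPKM, which understates differences of weakly expressed genes. On this scale 13 of the 21 measured peroxidase genes were lower in GmPSKγ1 and 8 were higher, with a median of -0.25, against a median of 0.05 over all 17816 measured genes, of which 42.1% were lower. When rescaled without the 50 most abundant genes the split was 14 lower and 7 higher, as AT5G15180 changed sign. No peroxidase gene was at least 2-fold higher (0.410% of all measured genes were), and 1 was at least 2-fold lower (0.819% of all). At 1.5-fold, 5 of the 21 were lower, or 23.8%, against 2.68% of all measured genes, and none was higher, against 3.13%. The range ran from -2.49 for AT1G68850 to 0.38 for AT2G37130. The gene nearest to the 2-fold threshold without reaching it was AT4G31760, at -0.91.

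Counting error was judged from recovered reads with an exact (Clopper-Pearson) 95% interval of the plain FPKM ratio, for the 19 measured genes whose models overlap no other. The interval lay wholly below 1 for 8 of these, or 42.1%, against 15.0% of all such models. It lay wholly above 1 for 4, or 21.1%, against 23.6%, and it held 1 for 7. Such an interval narrows with the number of reads and says nothing about how far separate lines or libraries would vary.

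**Figure D2:**
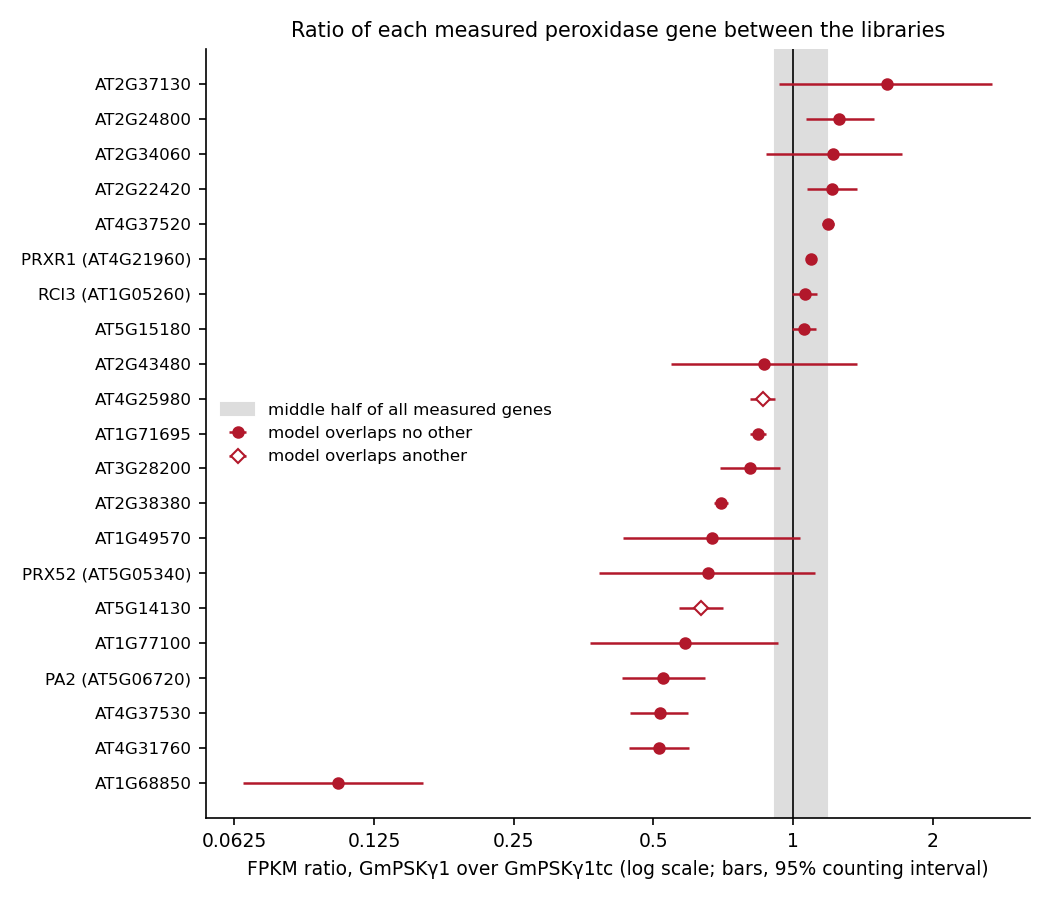
FPKM ratio of GmPSKγ1 over control for the 21 measured peroxidase genes (log scale), with 95% counting intervals as bars, open diamonds for the 2 models that overlap another, and a grey band for the interquartile range of all measured genes (0.916 to 1.18). AT1G68850 stands at 0.104, and a group of 3 genes follows between 0.513 and 0.525.

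AT1G68850 (chromosome 1, 25883616 to 25885247, minus strand) was the peroxidase gene that differed most. It was detected at 1.15 FPKM in GmPSKγ1 seeds against 11.0 in control seeds, from 24 reads in GmPSKγ1 and 215 in the control. The level in the control was thus 9.59-fold higher (counting interval 6.28 to 15.3), and its log2 ratio was the 19th lowest of the 17816 measured genes. Its model overlaps no other, and the longest stretch its transcript shares with another of the 60 is 28 bases, with AT3G49120. The reference gives this gene no function beyond its peroxidase annotation. The 250 bases before its annotated start are shown because no other member differed as much. They were read from RefSeq (TAIR10.1, chr1:25885262-25885511, minus strand), 5′ to 3′, and capitals mark the motifs found.
AT1G68850: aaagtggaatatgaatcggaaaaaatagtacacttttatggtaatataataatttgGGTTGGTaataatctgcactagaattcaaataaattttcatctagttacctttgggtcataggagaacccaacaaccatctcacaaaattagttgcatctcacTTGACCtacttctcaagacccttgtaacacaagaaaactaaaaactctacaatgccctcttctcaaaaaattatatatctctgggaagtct
The first mark is the AC element ACCAACC on the reverse strand, 194 to 188 bases before the start, a type of element known from promoters of lignin genes. It was found on either strand in 2 of the 60 windows, those of AT1G68850 and PA2, and in 2.69% of 27438 windows of protein-coding genes. The other mark is the W-box core TTGACC, 91 to 86 bases before the start, which 7 of the 60 windows and 12.2% of all windows hold. The 2 motifs do not overlap here, and a match describes letters only, not binding.

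Below AT1G68850 came 3 genes whose control level was nearly 2-fold that in GmPSKγ1. AT4G31760 (chromosome 4, 15368032 to 15369724) had 14.0 FPKM in GmPSKγ1 seeds against 27.2 in control seeds, with a ratio of 0.513 (counting interval 0.442 to 0.596). AT4G37530 (chromosome 4, 17634784 to 17636288) had 15.3 FPKM in GmPSKγ1 seeds against 29.5 in control seeds, with a ratio of 0.516 (0.446 to 0.595); its recovered reads are approximate, as are those of AT4G37520. PA2 (AT5G06720; chromosome 5, 2077420 to 2079005), annotated with roles in the wound response and in flower development, had 6.98 FPKM in GmPSKγ1 seeds against 13.3 in control seeds, with a ratio of 0.525 (0.427 to 0.644). All 3 were lower in GmPSKγ1 by more than counting error. AT5G14130 had 29.5 FPKM in GmPSKγ1 seeds against 46.7 in control seeds, and its model overlaps its neighbour by 7 bases. On the log2 scale with 1 added to each FPKM, it was the remaining gene past 1.5-fold lower. By the plain ratio, weakly expressed genes such as AT1G77100, at 0.586, lay past 1.5-fold too.

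The most abundant peroxidase genes differed less. PRXR1 (AT4G21960; chromosome 4, 11646174 to 11648462) made up 59.7% of the summed peroxidase FPKM in GmPSKγ1 and 55.5% in the control. Its level was 2078 FPKM in GmPSKγ1 seeds against 1899 in control seeds, from 53892 reads in GmPSKγ1 and 45987 in the control, with a ratio of 1.09 (counting interval 1.08 to 1.11). It ranked 22nd among all gene models in GmPSKγ1 and 23rd in the control. AT4G37520 followed with 506 FPKM in GmPSKγ1 seeds against 425 in control seeds, a ratio of 1.19 (1.16 to 1.22). AT2G38380 had 224 FPKM in GmPSKγ1 seeds against 320 in control seeds, a ratio of 0.699 (0.674 to 0.725), the lowest among the 7 genes that averaged 50 FPKM or more. AT1G71695 was also lower in GmPSKγ1, with 212 FPKM against 253 in the control. AT4G25980, whose model overlaps another by 43 bases, had 85.8 FPKM in GmPSKγ1 seeds against 99.7 in control seeds. AT5G15180 had 120 FPKM in GmPSKγ1 seeds against 114 in control seeds, and its counting interval of 0.992 to 1.12 held 1.

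The measured genes were also described by level, with no test between ranges. Among the 8 genes with a mean of 5 to 50 FPKM, 6 were lower in GmPSKγ1, against 42.8% of the 11297 genes of the same range, and the median log2 ratio was -0.74, against 0.04. Their summed level was 136 FPKM in GmPSKγ1 seeds against 192 in control seeds. AT1G68850 is 1 of the 8 and reaches this range, at a mean of 6.10 FPKM, only through its control level. The exceptions were AT2G22420, described with the lignin genes, and AT2G24800, at 18.9 FPKM in GmPSKγ1 seeds against 15.0 in control seeds. AT3G28200, a gene of 1 exon, had 18.5 FPKM in GmPSKγ1 seeds against 22.9 in control seeds. For the 7 genes above 50 FPKM the median was 0.07, with 3 lower, against a median of 0.12 and 30.2% lower over all 2101 genes at that level. For the 6 genes from 1 to 5 FPKM it was -0.26, with 4 lower, against a median of 0.04 and 46.0% lower over all 4418 genes. In this last range only AT1G77100, with 1.93 FPKM in GmPSKγ1 seeds against 3.29 in control seeds, had an interval that left out 1 (0.365 to 0.930). AT2G37130, the highest ratio of the measured genes, had 1.66 FPKM in GmPSKγ1 seeds against 1.04 in control seeds, with an interval of 0.934 to 2.69. AT2G34060, AT2G43480 and AT1G49570, between 1.74 and 4.33 FPKM in both libraries, also had intervals that held 1.

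Members with a known role were then grouped. The enzymes that polymerise lignin in the Casparian strip, the barrier of the root endodermis, include the products of 4 of the genes. Of these, only RCI3 (AT1G05260), annotated as a cold-inducible cationic peroxidase, was measured, at 104 FPKM in GmPSKγ1 seeds against 98.3 in control seeds (interval of the ratio 0.994 to 1.13). AT1G44970 had no read in GmPSKγ1 and 1 in the control, and AT4G11290 and AT5G66390 were listed at 0 in both libraries. Of 6 genes known for lignin of the stem, AT2G22420 had 31.5 FPKM in GmPSKγ1 seeds against 25.9 in control seeds, a ratio of 1.21 (1.07 to 1.37). PRX52 (AT5G05340) had 1.30 FPKM in GmPSKγ1 seeds against 1.98 in control seeds, from 26 reads in GmPSKγ1 and 37 in the control, with an interval that held 1 (0.382 to 1.11). AT2G41480 had 2 reads in GmPSKγ1 and none in the control, and AT1G05250, PER4 (AT1G14540) and AT5G66390 were listed at 0. AT2G22420 is known in Arabidopsis as a direct target of the transcription factor AGL15, whose own transcript had 161 FPKM in GmPSKγ1 seeds against 128 in control seeds, a ratio of 1.26 (1.19 to 1.34).

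The pair known for the oxidative burst of defence was weakly expressed. PRXCB (AT3G49120) had 0.693 FPKM in GmPSKγ1 seeds against 0.494 in control seeds, and PRXCA (AT3G49110) had 0.0894 FPKM in GmPSKγ1 and 0.239 in the control; both intervals held 1. Root hair peroxidases were nearly absent from both libraries, as were the root hair markers above. AT1G05240, AT1G30870 and RHS18 were listed at 0 in both, and AT4G26010 had no read in GmPSKγ1 and 1 in the control. Of the pair that acts on extensins in the anther, AT4G16270 was listed at 0 in both and AT1G44970 had the single control read given above. The genes AT4G11290, AT4G16270 and AT5G17820, known to be repressed in the root by the transcription factor UPB1, were listed at 0 in both libraries, as was UPB1.

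Among the 20 genes with reads and a mean below 1 FPKM, summed reads were 62 in GmPSKγ1 and 82 in the control, and no gene exceeded 16 reads in a library. For 2 of them the counting interval of the ratio left out 1, in opposite directions. The matching values over all gene models below 1 FPKM were not computed, for these intervals or for the summed reads. Neither is therefore read as particular to the peroxidase genes. AT4G36430 had 1 read in GmPSKγ1 and 16 in the control, a ratio of 0.0584 (0.00139 to 0.376). AT4G30170 had 16 reads in GmPSKγ1 and 4 in the control, a ratio of 3.74 (1.21 to 15.4). The ratio of the summed reads, scaled for depth, was 0.706 (0.499 to 0.994). It was 0.863 (0.599 to 1.24) without AT4G36430, 0.551 (0.374 to 0.803) without AT4G30170 and 0.678 (0.451 to 1.01) without both, settings added after the values were seen.

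The 19 genes listed at 0 in both libraries were AT1G05240, AT1G05250, AT1G14540, AT1G14550, AT1G30870, AT1G34510, AT2G38390, AT2G39040, AT3G01190, AT3G03670, AT3G17070, AT4G08780, AT4G11290, AT4G16270, AT4G17690, AT5G17820, AT5G19890, AT5G22410 and AT5G66390. A count of 0 allows up to 3 reads, which for these models is 0.134 to 0.189 FPKM in GmPSKγ1 and 0.143 to 0.203 FPKM in the control, counting error only. For AT1G05240 and AT1G05250, whose coding sequences are 100% identical over 978 bases, a 0 cannot be told apart from reads left out because they fit both genes. The same limit holds for AT4G16270, whose model overlaps that of AT4G16267 by 933 bases. AT4G16267 was also at 0 in both libraries. In part the limit extends to AT4G08780, which shares a transcript run of 101 bases with AT4G08770. It extends likewise to AT2G38390, which shares one of 62 bases with AT2G38380. Reads wholly within such runs may have been left out.

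Many peroxidase genes lie side by side, and 21 of the 60 fell into 10 groups in which neighbours were within 10 kb. In 5 of the groups no gene was measured, in 4 groups 1 gene was, and in 1 group 2 genes were. RCI3, for example, lies beside AT1G05240 and AT1G05250, both listed at 0, and AT2G38380, at 224 FPKM in GmPSKγ1 seeds against 320 in control seeds, lies beside AT2G38390, listed at 0 in both. PA2 lies beside AT5G06730, which had 2 reads in GmPSKγ1 and none in the control.

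**Figure D3:**
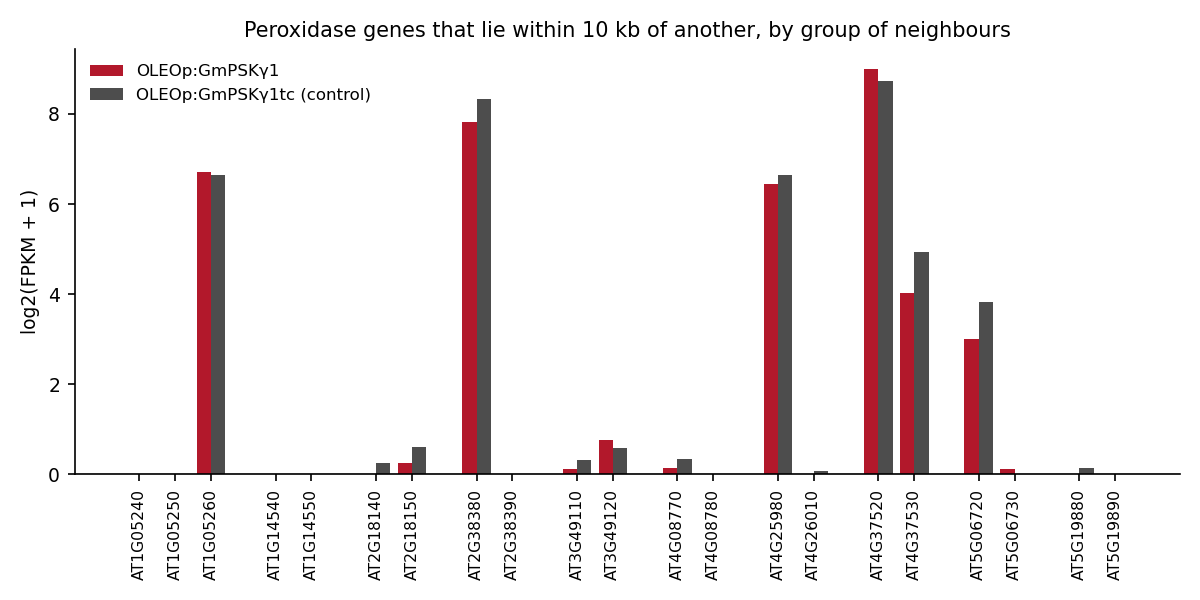
Level of the 21 peroxidase genes that lie within 10 kb of another, as log2(FPKM + 1), in the GmPSKγ1 library (red, left bar) and the control library (grey, right bar), with gaps between the 10 groups of neighbours. In the 4 groups with 1 measured gene, that gene carries nearly all of the expression. Only in the pair AT4G37520 and AT4G37530 are both measured. There too AT4G37520 is far more abundant, at 506 FPKM against 15.3 in GmPSKγ1 and 425 against 29.5 in the control.

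AT4G37520 and AT4G37530 went in opposite directions: the more abundant gene was higher in GmPSKγ1 and its neighbour was lower, with intervals of 1.16 to 1.22 and 0.446 to 0.595. Their coding sequences are 91.3% identical over 840 aligned bases, and their transcripts share a run of 67 bases. Reads that fall wholly within such a run fit both genes, and no source used here says how the authors assigned them. The most alike stretches of 60 coding bases within 1 exon are shown for 3 neighbouring pairs, to let the likeness behind these values be seen (RefSeq, TAIR10.1, coding strand, 5′ to 3′, capitals mark bases that differ within a pair).
AT4G37520: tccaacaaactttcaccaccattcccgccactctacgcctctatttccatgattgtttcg
AT4G37530: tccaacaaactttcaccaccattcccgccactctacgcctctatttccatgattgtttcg
AT2G38380: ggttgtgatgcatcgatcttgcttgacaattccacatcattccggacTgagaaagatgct
AT2G38390: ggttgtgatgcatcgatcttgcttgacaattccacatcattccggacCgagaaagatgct
AT5G06720: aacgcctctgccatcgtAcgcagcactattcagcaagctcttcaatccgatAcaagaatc
AT5G06730: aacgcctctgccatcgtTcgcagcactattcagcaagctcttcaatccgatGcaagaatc
The stretches lie at chr4:17631855-17631914 and chr4:17634937-17634996 on the plus strand, chr2:16076812-16076871 and chr2:16080097-16080156 on the plus strand, and chr5:2078672-2078731 and chr5:2081433-2081492 on the minus strand. The first pair has no difference in its stretch, the second pair 1 and the third pair 2. Over the whole coding sequence the second pair is 90.6% identical and the third 85.9%, with longest shared transcript runs of 62 and 33 bases. Outside these pairs, the longest run that a measured gene's transcript shares with another of the 60 was 28 bases or shorter.

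The 250 bases before the annotated starts of AT4G37520 and AT4G37530 are shown because these neighbours differed in level and in direction (RefSeq, TAIR10.1, chr4:17631250-17631499 and chr4:17634446-17634695, plus strand, 5′ to 3′). Capitals mark the longest run that both windows share.
AT4G37520: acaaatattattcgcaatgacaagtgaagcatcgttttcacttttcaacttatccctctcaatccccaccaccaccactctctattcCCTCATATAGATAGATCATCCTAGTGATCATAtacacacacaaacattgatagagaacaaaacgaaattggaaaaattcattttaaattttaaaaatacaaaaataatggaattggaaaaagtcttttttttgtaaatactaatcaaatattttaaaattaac
AT4G37530: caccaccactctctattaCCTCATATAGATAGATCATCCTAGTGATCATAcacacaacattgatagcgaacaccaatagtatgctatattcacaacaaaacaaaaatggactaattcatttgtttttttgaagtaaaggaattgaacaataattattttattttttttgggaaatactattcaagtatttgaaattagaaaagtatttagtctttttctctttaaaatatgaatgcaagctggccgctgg
The shared run is 32 bases long and begins 163 bases before the start of AT4G37520 and 232 bases before that of AT4G37530. None of the 6 motifs searched lies in these windows.

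The other genes of the family were set beside the 60. Of the 13, 4 were measured, with 3 higher and 1 lower, and 5 were listed at 0 in both libraries. The lower one, PER64 (AT5G42180), known from the Casparian strip, lay past 2-fold too, at 2.23 FPKM in GmPSKγ1 seeds against 7.07 in control seeds, from 45 reads in GmPSKγ1 and 133 in the control; its model overlaps another. AT3G50990, known from the mucilage-secreting cells of the seed coat, was the most abundant of the 13, with 8.76 FPKM in GmPSKγ1 seeds against 7.10 in control seeds, and its interval held 1 (0.983 to 1.55). Over all 73 family genes, 2 of 25 measured genes, AT1G68850 and PER64, were at least 2-fold lower, against 0.819% of all measured genes.

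Genes that supply or remove hydrogen peroxide were described by family, beside the 57.9% of all measured genes that were higher in GmPSKγ1. The 3 measured NADPH oxidase genes of 10 were all lower in GmPSKγ1 (median log2 ratio -0.59). RBOHD, known for the oxidative burst of defence and for peroxide at lignin barriers, was lowest, with 12.2 FPKM in GmPSKγ1 seeds against 25.8 in control seeds, a ratio of 0.474 (counting interval 0.430 to 0.521) and the sole one past 2-fold. RBOHE, whose model overlaps another, had 10.9 FPKM in GmPSKγ1 seeds against 16.8 in control seeds, and RBOHF had 12.7 FPKM in GmPSKγ1 seeds against 14.5 in control seeds.

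Superoxide dismutases supply peroxide from superoxide, and 7 of their genes were listed here, which need not be the whole family. All 7 had the higher level in GmPSKγ1 (median log2 ratio 0.49), with none past 2-fold. All 7 stayed higher under both rescalings. The models of 2, CSD1 and CSD3, overlap another, and the interval of CSD3 held 1 (0.923 to 1.22). Transcript levels do not show in which part of the cell the peroxide is made. FSD2, of the plastid, had 25.7 FPKM in GmPSKγ1 seeds against 12.8 in control seeds, a ratio of 2.01 (1.75 to 2.33) without the pseudocount. FSD1, the most abundant, had 172 FPKM in GmPSKγ1 seeds against 152 in control seeds. Of 3 catalase genes 2 were higher (median 0.27), a share near that of all genes, led by CAT3 with 55.0 FPKM in GmPSKγ1 seeds against 34.1 in control seeds; CAT1, the most abundant, had 133 FPKM in GmPSKγ1 seeds against 110 in control seeds. Of 6 measured ascorbate peroxidase genes 5 were higher (median 0.29). SAPX had 38.5 FPKM in GmPSKγ1 seeds against 26.9 in control seeds. APX4, which the reference names TL29, was the most abundant, at 114 FPKM in GmPSKγ1 seeds against 91.3 in control seeds. Its model overlaps another, and it was listed by name, without a check that it acts as an ascorbate peroxidase. Ascorbate peroxidases act inside the cell and are a separate family from the secreted enzymes.

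**Figure D4:**
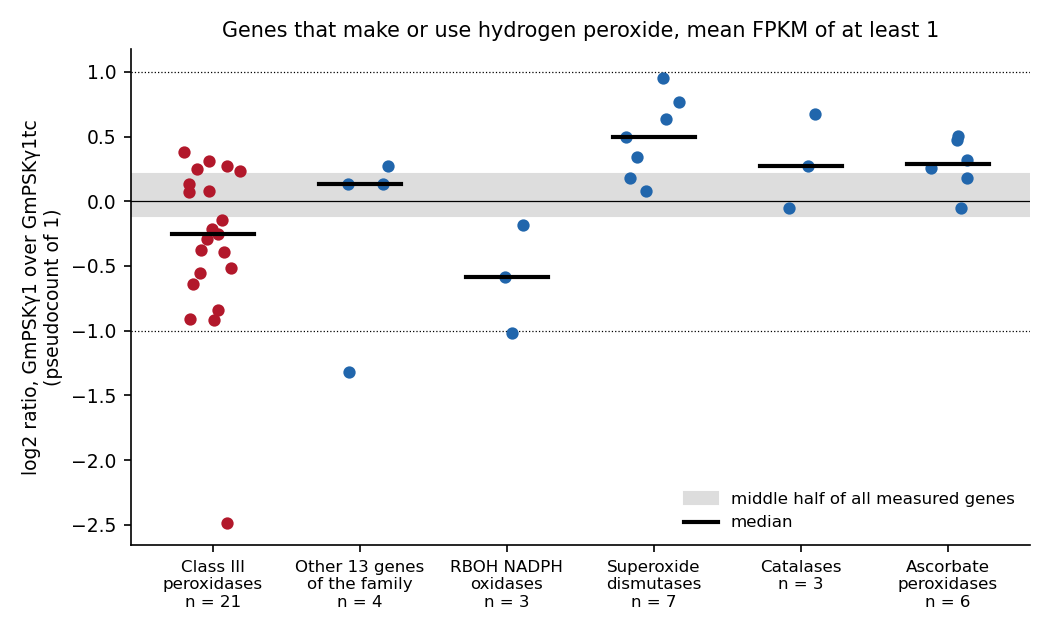
Log2 ratio of GmPSKγ1 over control (pseudocount of 1) for the measured genes of the class III peroxidases, the other 13 genes of the family and 4 families around hydrogen peroxide, with medians as black bars, 2-fold as dotted lines and the interquartile range of all measured genes in grey. The 3 NADPH oxidase genes lie below 0 and the 7 listed superoxide dismutase genes above it, while the peroxidases spread from -2.49 to 0.38.

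Barrier and regulatory genes completed the lists. Of 8 Casparian strip genes 2 were measured: GSO1, a receptor kinase gene also needed for the embryo cuticle, had 14.8 FPKM in GmPSKγ1 seeds against 16.9 in control seeds, and ESB1 had 2.76 FPKM in GmPSKγ1 seeds against 2.69 in control seeds. Both models overlap another. KUA1 (AT5G47390), known as a repressor of peroxidase genes in leaves, had 18.3 FPKM in GmPSKγ1 seeds against 17.8 in control seeds, with an interval that held 1 (0.901 to 1.17).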

How the data were processed

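The values are FPKM computed by the authors, in 1 table per library, named FPKM per the file headers. Bowtie 0.12.2 and TAIR10 are named as tool and build, per the submitters' processing notes; FPKM program, annotation release, strand setting, read length and treatment of reads with several matches: not given in the sources used here. Without strand, antisense reads would count for a gene too.

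Reads were recovered from the FPKM steps, with exon lengths from the annotation of RefSeq (TAIR10.1) whose ends were moved to those deposited. Of 71 member values above 0, 61 came out whole within 0.05, where chance gives 10.0%; the other values belong to 7 genes and are approximate. Without molecular identifiers, reads are no independent molecules, so the intervals and the 3-read limit of a 0 cover counting error only. With 1 library per genotype no test was run; the steps were tested on simulated data. All 60 genes lie on the same chromosome in both annotations. Python 3.11.15, pandas 2.3.3, scipy 1.17.1 and Biopython 1.88 were used.

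The members and gene lists were chosen with earlier results of these data known. Genes named with values were members of at least 5 FPKM in either library, those past 2-fold, those of a role group and, per other list, the most abundant and the most different gene. Other genes named, the windows shown and the 6 motifs were chosen after the values were seen. Alternatives were pseudocounts, minimums, thresholds, 2 rescalings and leaving out overlapping models.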

Additional observations from a re-analysis of the deposited data

How the results depend on the processing

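With pseudocounts of 0.1 and 5, both rescalings, no minimum, a minimum mean of 5 FPKM, a 4-fold threshold and without the overlapping models, 1 peroxidase gene, AT1G68850, remained past the threshold as lower and 0 as higher. It passes the minimum mean of 5 FPKM only through its control level, 11.0 FPKM against 1.15 in GmPSKγ1. A threshold of 1.5-fold gave 5 lower. The count at 2-fold was close to changing when rescaled without the 50 most abundant genes. There AT4G31760 and AT4G37530 had log2 ratios of -0.990 and -0.987, just short of 2-fold lower. The median log2 ratio of the measured peroxidase genes ranged from -0.33, when rescaled without the 50 most abundant genes, to -0.14 with no minimum, over 41 genes. The log2 ratio of AT1G68850 was -3.15 with a pseudocount of 0.1 and -1.38 with one of 5. The rescalings lowered every GmPSKγ1 value by 0.05 and 0.08 on the log2 scale; AT5G15180 turned to -0.01 under the second. Lower values rest on fewer reads: in GmPSKγ1, PA2 at 6.98 FPKM had 149 reads and AT1G68850 at 1.15 FPKM had 24. No paired analysis was possible because each genotype has 1 library.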

Other observations

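The 250-base windows before the annotated starts were searched on both strands for 6 motifs chosen after the values were seen. The RY core CATGCA, known from seed maturation promoters, lay in 17 of the 60 peroxidase windows, or 28.3%, against 8.43% of 27438 windows of protein-coding genes. It was in 5 of the 21 windows of measured genes (RCI3, AT1G49570, AT2G24800, AT4G25980 and AT5G14130) and in 12 of the other 39. Neighbouring genes share sequence, so the windows are not independent. The AC elements ACCTACC and ACCTAAC were in 0 and 3 of the 60 windows (1.16% and 2.46% of all), and the G-box CACGTG was in 1 (6.49% of all).

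Of the NADPH oxidase genes below 1 FPKM, RBOHA had 6 reads in GmPSKγ1 and 31 in control seeds; its model overlaps AT5G07380. RBOHJ, known from pollen tubes, had 19 reads in GmPSKγ1 and 3 in the control. The pollen gene VGD1 had 3.69 FPKM in GmPSKγ1 seeds against 5.07 in control seeds. The part of pollen RNA in these values was not tested.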
